A study of Homo sapiens with 10 samples.

Results

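Internal coding exons of about the length of nucleosomal DNA were examined for where nucleosomes were called on them and beside them. The exons were those of 100 to 200 bp, fully coding and neither first nor last, in the canonical transcripts of autosomal protein-coding genes, with at least 1000 bp of intron on both sides. This rule was met by 36158 of the 159184 internal exons of these transcripts, in 9632 genes. The median gene had 3 of them, and SYNE1, which encodes a giant protein linking the nucleus to the cytoskeleton, had the most with 51. An internal exon is recognised by the splicing machinery at both of its ends. At the acceptor site, upstream of the exon, U2AF binds a stretch of pyrimidines that ends in AG, and at the donor site, downstream of it, the U1 particle pairs with a short sequence that starts with GT. Many human exons are richer in G and C than the introns around them, and nucleosomes have been described as denser on exons. DNA rich in G and C tends to favour nucleosomes, while MNase, the enzyme used here, cuts DNA rich in A and T more readily, so base composition bears on both the nucleosome and its measurement.

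The study digested chromatin of human induced pluripotent stem cells (hiPSCs) from the PB010.5 line for 5 min with 5 amounts of MNase, the lowest 0.5 U, followed by 1 U and 3 U and then by 6 U and 10 U. A reporter of the cell cycle sits in the EEF2 locus of this line. Each amount gave 1 library, and each library was sequenced with 150-bp and with 50-bp reads, so that the 10 samples of the series are 5 digestions read in 2 ways. The data examined were 1 list of 12921589 nucleosome positions, each an interval of 140 bp with a score, that the authors called on pooled libraries. It gives no value by amount of MNase and no replicate, so no p-value is given. The error of each value is its standard deviation (SD) over the 22 autosomes, which are not replicates but show how evenly a value held across the genome. All the cells carried the same reporter, and a single line stands for hiPSCs.

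The exons had the sequence of spliced exons at their edges. AG preceded 99.9% of them, GT followed 99.1% and GC followed 285. In the 20 bases before the AG, 74.5% of the bases were pyrimidines and 48.8% were T, against 50.8% and 28.7% before intronic windows of the same length and GC content. The exons had a median length of 138 bp, with quartiles of 119 bp and 163 bp. Their mean GC content was 47.5%, against 41.5% in the sequence 300 to 500 bp from their centres, and 77.7% of the exons were richer in G and C than their own flanks. The annotation placed 82.1% of them in every coding transcript that spans them, and 38.2% had a length that is a multiple of 3. The exon of ACTN2 whose length was nearest to that of the DNA around a histone octamer and an exon with a high-scoring position at its centre, in TBXAS1, are shown here to make these parts visible. Both are read from the GRCh38 reference in the direction of the gene, with the exon in capitals and 25 bases of intron on each side in lower case, so that each lower-case run before the capitals ends in ag and each one after them starts with gt.
ACTN2 exon 18 of 21, chr1:236757461-236757657, plus strand: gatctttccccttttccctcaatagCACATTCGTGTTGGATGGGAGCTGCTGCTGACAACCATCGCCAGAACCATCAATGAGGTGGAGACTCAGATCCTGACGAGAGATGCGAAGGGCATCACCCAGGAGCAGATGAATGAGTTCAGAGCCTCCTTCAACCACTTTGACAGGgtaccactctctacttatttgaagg
TBXAS1 exon 5 of 13, chr7:139936166-139936332, plus strand: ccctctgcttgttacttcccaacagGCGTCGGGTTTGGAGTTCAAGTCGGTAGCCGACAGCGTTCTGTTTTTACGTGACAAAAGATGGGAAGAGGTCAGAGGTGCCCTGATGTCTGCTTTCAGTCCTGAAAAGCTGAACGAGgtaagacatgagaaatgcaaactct
The pyrimidine tract is visible in both. Of the 20 bases before the AG, 90% were pyrimidines in the ACTN2 intron and 75% in the TBXAS1 intron.

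Nucleosome midpoints were denser at the centres of the exons than in their flanks. Within 50 bp of the centre there were 5.74 midpoints per kb, and 300 to 500 bp away there were 4.92 per kb, a ratio of 1.17. On the log2 scale this ratio was 0.22 ± 0.10 (SD, 22 autosomes), and it was above 0 on all 22 autosomes. With positions under the median score left out, it was 0.39 ± 0.11, and 35.9% of the exons had a midpoint within 50 bp of the centre. The following shares are from all positions. Of the 36158 exons, 20767 had a midpoint within 50 bp of the centre, which is 57.4% ± 1.76 (SD, 22 autosomes). The background for this share was 55.0%, the share of intronic windows of the same chromosome, length and GC content, drawn 1 per exon at least 1000 bp from any annotated exon. The exons exceeded it by 2.40 percentage points, a difference no larger than its SD of 2.56 over the autosomes, and their share was above that of the windows on 19 of 22. Repeated sequence differed between these sets, since 15.0% of the 14-mers in the windows and 0.142% of those in the exons were repeated ones. Among GC-matched windows with few repeated 14-mers, 56.6% had a central midpoint. Against these, the excess was 0.81 percentage points, with an SD of 2.75 and the exons higher on 15 of 22 autosomes. The flanks of these windows had a GC content of 44.4%, against 41.5% beside the exons, and the part of this was not tested.

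How much of the excess went beyond the windows depended on which windows were used. Windows matched only in their own GC content had a log2 ratio of 0.14 ± 0.059, and the exons exceeded them by 0.088 ± 0.090, on 20 of 22 autosomes, a difference no larger than its spread. With 1 exon per gene, the first of its members in transcript order, this difference was 0.044 ± 0.14. This choice also changes the place of the exons within their genes. Over all exons, the difference was 0.048 ± 0.12 in the quartile nearest to a coding start and 0.16 ± 0.18 in the farthest. With windows matched also in their number of CpG dinucleotides, the excess was larger than its spread, at 0.10 ± 0.072, with the exons higher on 21 of 22 autosomes, and the share with a central midpoint differed by 3.61 percentage points, with an SD of 2.17. Against the windows with few repeated 14-mers the excess was 0.096 ± 0.092, on 19 of 22. The GC-matched windows lay in richer sequence than the exons did, with a GC content of 43.4% in the flanks. Windows drawn without regard to GC content had a log2 ratio of 0.0046, and the exons exceeded those by 0.22 ± 0.11 on 21 of 22 autosomes. When window and flanks were each matched within 0.03 in GC content, the windows reached 0.19 and the exons exceeded them by 0.036 ± 0.079. A further set, called edge-matched here, was chosen after these values were seen: its GC content was matched to the exon in the window, in the 100 bp on either side and in the flanks. Such a window was found for 36058 exons. The matching was not exact. These exons had 47.5% GC, with 38.8% in the 100 bp before them, 41.2% after them and 41.5% in the flanks. The windows had 47.1%, 39.6%, 41.6% and 41.7% in this order, and the part of these gaps was not tested. The edge-matched windows had a log2 ratio of 0.20 ± 0.068, against 0.22 in the exons. The difference of 0.025 ± 0.070, with the exons higher on 14 of 22 autosomes, was smaller than its spread. A midpoint lay within 50 bp of the centre in 56.4% of the edge-matched windows.

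**Figure D1:**
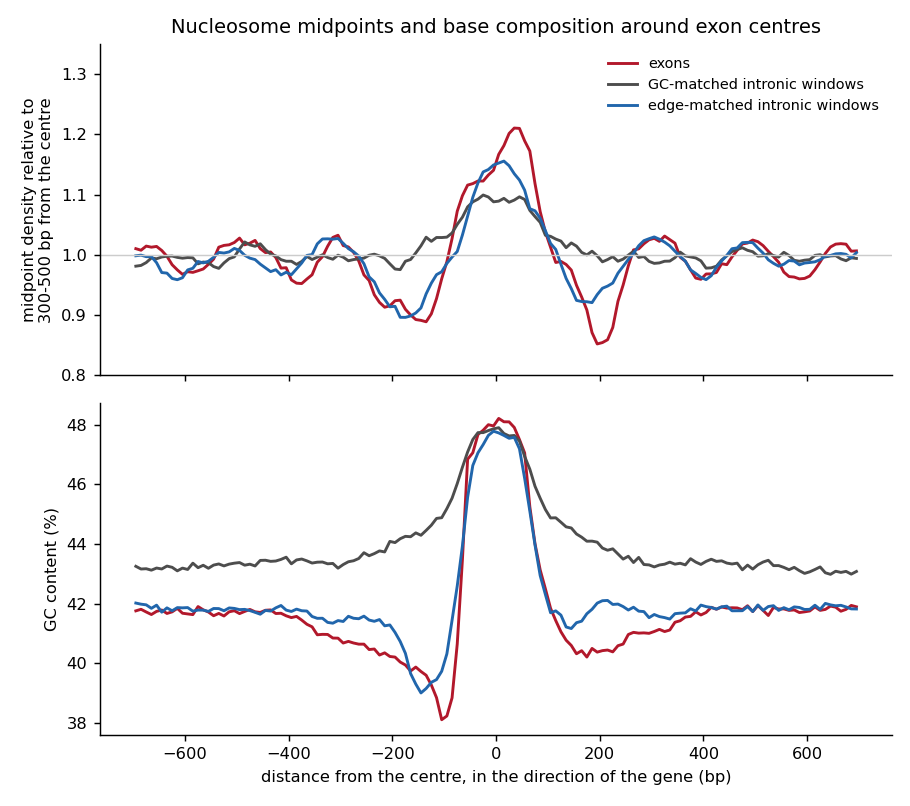
The upper panel plots the density of nucleosome midpoints, relative to that 300 to 500 bp from the centre and smoothed over 5 bins of 10 bp, against the distance from the centre of the exon or window in bp. The lower panel plots the GC content in percent, and the lines stand for the exons, the GC-matched windows and the edge-matched windows. The exons reach 1.21 at 35 bp after the centre and fall to 0.852 at 195 bp after it, where the edge-matched windows are at 0.934.

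Around the centre of the exon, a maximum was flanked by a minimum on each side. The maximum of 1.21 ± 0.066 lay 35 bp after the centre, towards the donor site, and the minima were 0.889 ± 0.048 at 135 bp before the centre and 0.852 ± 0.056 at 195 bp after it. Both minima were below 1 on all 22 autosomes. Sought on each autosome by itself, the maximum lay on average 22.7 ± 38.4 bp after the centre, so its place did not differ from the centre by more than the spread. The GC-matched windows were at 1.09 at the place of the maximum and at 1.03 and 0.999 at the places of the minima. The edge-matched windows had both a maximum and minima. They peaked at 1.16 at 15 bp after the centre, and their own minima were 0.896 at 175 bp before it and 0.921 at 185 bp after it. At the place of the exons' upstream minimum, the edge-matched windows stood at 0.935 ± 0.051, and the exons were lower there on 16 of 22 autosomes, by a mean of 0.054 ± 0.074, which is within the spread. At the place of the downstream minimum, these windows stood at 0.934 ± 0.059, and the exons were lower there on 20 of 22 autosomes, by a mean of 0.083 ± 0.065. Beyond the minima, the density rose again to 1.03 at 305 bp before and at 325 bp after the centre of the exon, and the edge-matched windows had 1.03 and 1.02 at these places.

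The maximum was also measured from both splice sites. After the acceptor site, at the upstream end of the exon, the density rose to 1.22 ± 0.079 at 105 bp into the exon or past its end. In the edge-matched windows it was 1.14 there, with their own maximum of 1.17 at 75 bp. Before the donor site, at the downstream end, the maximum of 1.18 ± 0.067 lay 45 bp inside the exon, and that of the edge-matched windows was 1.15 at 75 bp inside. The location on single autosomes varied, with an SD of 40 bp from the acceptor site and 27.1 bp from the donor site. The gap to the windows was below this spread at the acceptor site and slightly above it at the donor site, where the maximum moved to -17.5 bp with bins of 5 bp.

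The lowest densities lay in the introns on both sides of the exon. Upstream of the acceptor site, the density fell to a minimum of 0.878 ± 0.048 at 65 bp from the site. The GC-matched windows were at 1.02 there and the edge-matched windows at 0.938 ± 0.037, with a lowest value of 0.899 at 105 bp. At 65 bp the exons were lower than the edge-matched windows on 20 of 22 autosomes, by 0.065 ± 0.053 on average, while the GC content there was 39.6% beside the exons and 38.9% beside these windows. Over the whole 100 bp before the acceptor site, the log2 ratio to the flanks was -0.098 ± 0.058 in the exons and below 0 on 20 autosomes, and it was -0.078 ± 0.047 in the edge-matched windows. Thus the 100 bp as a whole differed by less than the spread. Sought on each autosome by itself, the minimum lay on average -81.8 ± 31.5 bp from the site, a range that holds the place of the windows' minimum.

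Downstream of the donor site, the deepest minimum of the profile was found, at 0.844 ± 0.052 and 135 bp into the intron. Its place was the steadiest of those measured from the splice sites, with an SD of 14.5 bp over the autosomes. The edge-matched windows were at 0.938 ± 0.058 at this distance and reached their own minimum of 0.915 at 105 bp. The exons were lower than these windows on 20 of 22 autosomes, by 0.098 ± 0.058 on average. The GC content at this place was 40.3% beside the exons and 42.1% beside the edge-matched windows, and the part of this gap in the density was not tested. The places compared were the exons' own extremes, which favours a larger difference there. In the 100 bp next to the donor site, where the minimum does not lie, the log2 ratio was 0.0031 ± 0.053 in the exons and -0.014 ± 0.066 in the edge-matched windows.

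**Figure D2:**
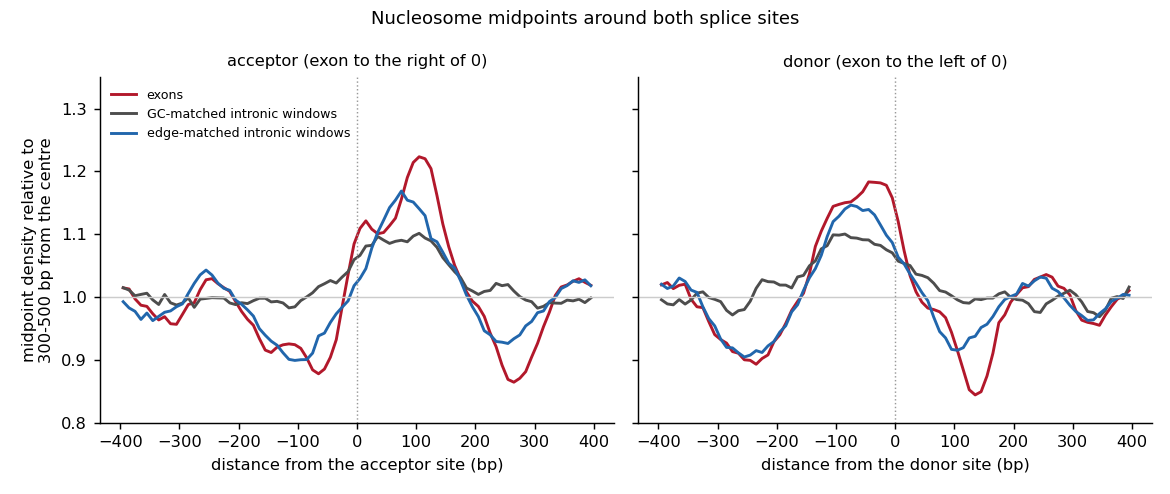
The density of midpoints, relative to that 300 to 500 bp from the centre, is plotted against the distance in bp from the acceptor site on the left and from the donor site on the right, with the splice site at 0. Lines stand for the exons and both kinds of intronic windows, and the exons fall to 0.878 at 65 bp before the acceptor site and to 0.844 at 135 bp after the donor site.

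The density at the exon centre varied between autosomes. The log2 ratio was lowest on chromosome 22, at 0.032, and on chromosome 19, at 0.034, and highest on chromosome 13, at 0.41, followed by chromosome 4 at 0.37. The edge-matched windows were at 0.12 on chromosome 22, 0.043 on chromosome 19, 0.27 on chromosome 13 and 0.25 on chromosome 4. The difference of the exons from their edge-matched windows was lowest on chromosome 15, at -0.11, and highest on chromosome 13, at 0.14.

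**Figure D3:**
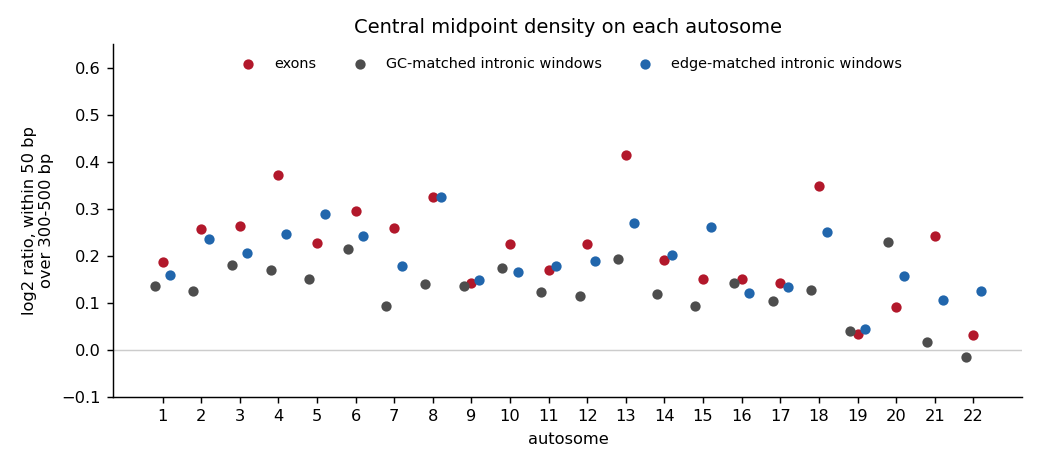
The log2 ratio of the midpoint density within 50 bp of the centre to that 300 to 500 bp away is plotted for each autosome, with points for the exons, the GC-matched windows and the edge-matched windows. All the points of the exons lie above 0, from 0.032 on chromosome 22 to 0.41 on chromosome 13, and they overlap those of the windows.

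Longer exons had a higher central density. The log2 ratio was 0.15 ± 0.12 in the 9392 exons of 100 to 119 bp, 0.20 ± 0.11 in those of 120 to 139 bp, 0.26 ± 0.11 in those of 140 to 159 bp, 0.28 ± 0.12 in those of 160 to 179 bp and 0.30 ± 0.15 in the 4209 exons of 180 to 200 bp. Neighbouring classes differed by less than their spread, and the shortest and the longest by slightly more than it. Windows matched only in GC content stayed between 0.13 and 0.14 in all of these classes. The edge-matched windows had 0.14, 0.21, 0.19, 0.26 and 0.23 from the shortest class to the longest. The exons differed from them by 0.0035, -0.012, 0.067, 0.023 and 0.076 in this order, without a steady trend and by less than the spread in each class, which was 0.13 in the shortest and 0.14 in the longest. The GC content of the exons also rose with length, from 46.5% to 49.1%.

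The place of the maximum was less certain in the length classes than in all exons. Over all autosomes together, it lay between 95 and 125 bp from the acceptor site in every class, while before the donor site it lay 15 bp inside the exon in the shortest class and 85 bp inside in the longest. The edge-matched windows had it at 75 bp from the upstream edge in the shortest class and 65 bp in the longest, and at 45 bp and 125 bp from the downstream edge. Sought on each autosome by itself, the maximum lay on average 67.7 ± 40.4 bp from the acceptor site in the shortest class, 85 ± 45.3 bp, 88.6 ± 38.5 bp and 108.6 ± 30.0 bp in the following ones and 95.0 ± 58.7 bp in the longest. These averages did not rise steadily, and from the shortest class to that of 160 to 179 bp they grew by slightly more than the spread. The average of the shortest class is not the place of a single maximum, since the profile of the exons of 100 to 119 bp had a lower maximum of 1.11 at 15 bp, a dip to 1.05 at 45 bp and the higher maximum of 1.16 at 95 bp. From the donor site the averages were -57.3 ± 39.3 bp in the shortest class, -48.6 ± 36.5 bp, -63.6 ± 41.7 bp and -72.3 ± 41.3 bp in the following ones and -86.8 ± 52.2 bp in the longest. The farthest apart of these, for 120 to 139 bp and 180 to 200 bp, differed by less than the SD of the longest class. Their difference was slightly more than the SD of the other class. The averages of shorter exons are again not the places of single maxima. From the donor site, exons of 100 to 119 bp had 1.12 at -105 bp, 1.06 at -55 bp and 1.15 at -15 bp. Those of 120 to 139 bp had 1.15 at -115 bp, 1.09 at -75 bp and 1.23 at -15 bp. From the acceptor site these had 1.16 at 15 bp, 1.08 at 55 bp and 1.22 at 125 bp.

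**Figure D4:**
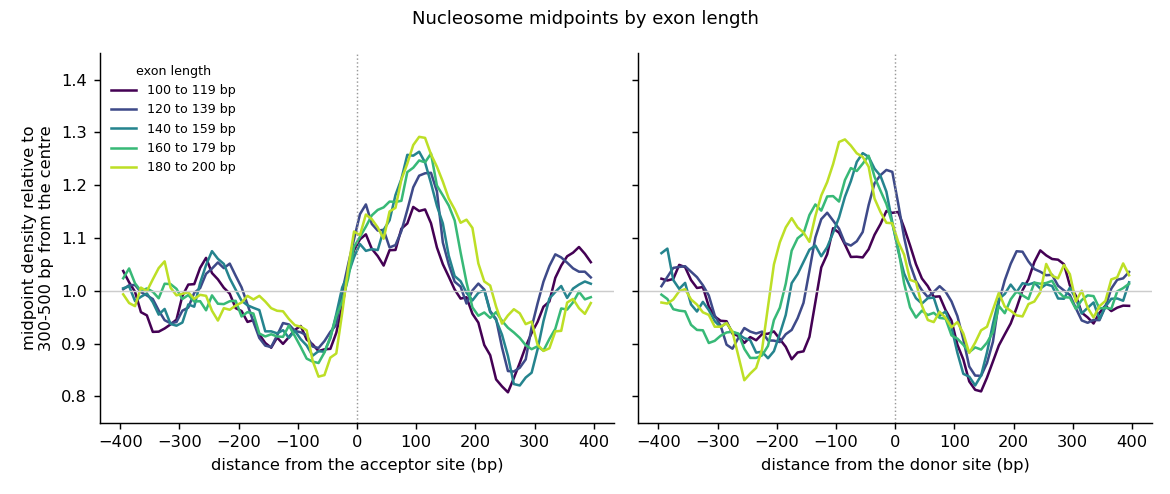
The density of midpoints around the exons, relative to that 300 to 500 bp from the centre, is plotted against the distance in bp from the acceptor site on the left and the donor site on the right, with 1 line for each of the 5 length classes. On the left the maxima lie together between 95 and 125 bp, and on the right they lie 15 bp inside the exon in the shortest class and 85 bp inside in the longest.

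No step was seen at the limits of the length rule. The log2 ratio was 0.12 ± 0.13 in exons of 90 to 99 bp, just too short, and 0.12 ± 0.12 in those of 100 to 109 bp. It was 0.29 ± 0.14 in exons of 191 to 200 bp and 0.30 ± 0.15 in those of 201 to 210 bp, just too long. Under the same rule for introns, the 19749 exons under 100 bp had a log2 ratio of 0.041 and a midpoint near the centre in 50.1%, and the 9050 exons over 200 bp had 0.28 and 60.0%. Exons of 100 to 200 bp exceeded the shorter ones by 0.18 ± 0.087, on 22 of 22 autosomes, and differed from the longer ones by -0.056 ± 0.074. The GC content differed as well, at 45.2% in the shorter and 50.8% in the longer exons, and its part in these differences was not tested.

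The contrast in GC content between an exon and its flanks went with the largest differences among the exons. In the quartile of exons with the smallest contrast, which were on average poorer in G and C than their flanks, the log2 ratio was -0.029 ± 0.10. It was 0.16 ± 0.12 in the next quartile, 0.28 ± 0.11 in the one after it and 0.49 ± 0.14 in the quartile with the largest contrast, where the exons had 52.9% and their flanks 36.8% GC. The edge-matched windows of the same exons followed the same order, with -0.051, 0.15, 0.30 and 0.40. The exons exceeded their edge-matched windows by 0.089 ± 0.093 in the quartile with the largest contrast, on 18 of 22 autosomes. The GC contrast of the windows in that quartile was not computed, and its part in this excess was not tested. In the other quartiles the difference was no more than 0.022 in either direction. The introns next to the exons followed the contrast too. From the quartile with the smallest contrast to that with the largest, the log2 ratio in the 100 bp before the acceptor site went from -0.33 to 0.12, and in the 100 bp after the donor site from -0.18 to 0.18.

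By GC content of the exon alone, the ratio of the centre to the flanks was highest in the middle quartiles. The log2 ratio was 0.13 ± 0.15 in the quartile poorest in G and C, 0.33 ± 0.096 and 0.29 ± 0.15 in the middle quartiles, and 0.14 ± 0.11 in the richest. The edge-matched windows of the same exons had 0.10, 0.29, 0.24 and 0.16 in this order. The share of exons with a central midpoint was 49.8% in the poorest quartile, then 59.5% and 60.7%, and 59.8% in the richest, while the GC content of the flanks rose from 37.3% to 48.4%. The GC-matched windows of the same exons rose likewise, from 48.2% through 55.6% and 58.1% to 58.2%. The intron before the acceptor site was at -0.32 beside the poorest exons and at 0.026 beside the richest. Exons preceded by the most pyrimidines had a log2 ratio of 0.17 ± 0.11, against 0.27 ± 0.11 for those preceded by the fewest, a difference smaller than the spread. The edge-matched windows of the same exons had 0.18 and 0.24, and the flanks of the exons had 42.8% and 40.5% GC.

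**Figure D5:**
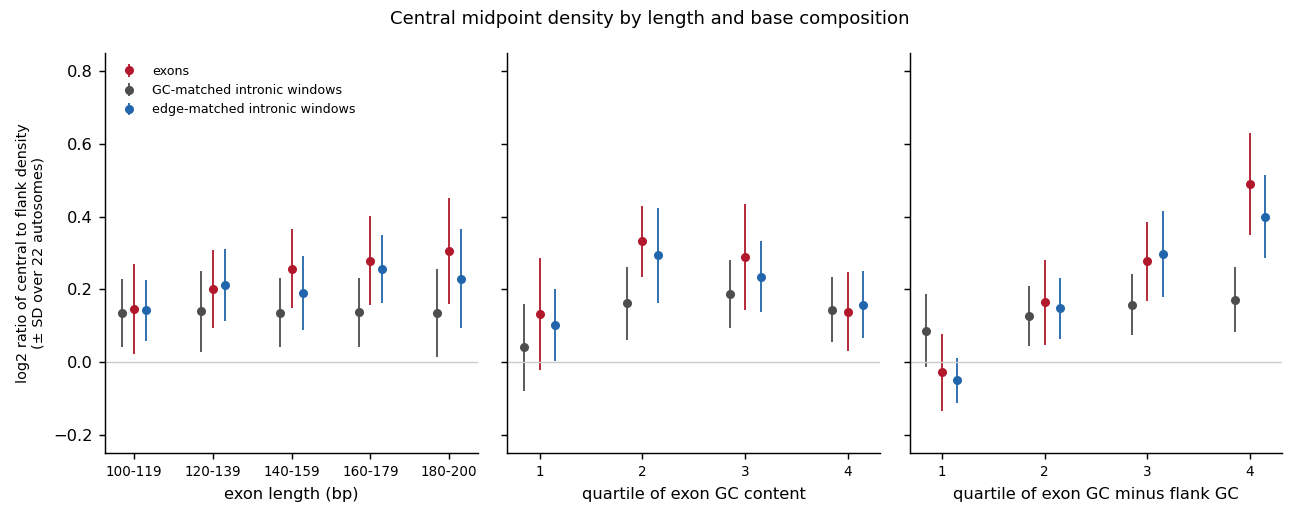
The log2 ratio of central to flank density, with the SD over 22 autosomes as error bars, is plotted by exon length, by quartile of exon GC content and by quartile of the GC content of the exon minus that of its flanks. Points stand for the exons, the GC-matched windows and the edge-matched windows of the same exons, and in the right panel the exons and the edge-matched windows rise together, to 0.49 and 0.40 in the last quartile.

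Features that concern splicing and the reading frame went with differences no larger than their spread. Exons in every coding transcript that spans them had a log2 ratio of 0.22 ± 0.094, and the 6469 that are skipped or altered in some had 0.23 ± 0.16. Exons whose length is a multiple of 3, which can be skipped without a change of frame, had 0.22 ± 0.10, and the others had 0.23 ± 0.11. The 2736 exons that were the second of their transcript had 0.15 ± 0.15, against 0.23 ± 0.10 in later ones. By the length of the upstream intron, the quartiles ran from 0.21 to 0.26, and by that of the downstream intron they had 0.19, 0.18, 0.25 and 0.27 from the shortest to the longest, both within their spread. The quartile of exons nearest to a start of coding transcripts had 0.17 ± 0.12 and the quartile farthest from one had 0.29 ± 0.18. This difference was slightly above the SD of the nearest quartile and below that of the farthest. The edge-matched windows of the same exons had 0.18 and 0.26, and the flanks of the exons had 43.3% and 39.2% GC.

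The positions on exons scored slightly lower than those on GC-matched windows. The mean score of positions with a midpoint within 50 bp of the centre was 17.5 ± 1.53 (SD, 22 autosomes) in the exons and 18.1 ± 1.21 in the GC-matched windows, a log2 ratio of -0.047 ± 0.040, and the exons were higher on 4 of 22 autosomes. Against the windows with few repeated 14-mers, whose mean score was 18.8, the log2 ratio was -0.10 ± 0.034, beyond its spread. The exons were higher than these on 0 of 22. The flanks of these windows had 44.4% GC, against 41.5% beside the exons, and the part of this in the score was not tested. Against the edge-matched windows, whose mean score was 17.4, the exons were higher on 14 of 22, so the direction turned with the choice of windows. The nucleosomal DNA at these positions had a mean GC content of 46.9% in the exons, 47.8% in the GC-matched windows and 46.7% in the edge-matched windows. In the flanks of the exons the mean score was 16.4. Mean scores rose with the GC content of the nucleosomal DNA around the midpoint in exons and in GC-matched windows. Positions with 35% to 40% GC had a mean score of 13.1 ± 1.03 in exons and 13.5 ± 0.846 in windows. At 45% to 50% both had 18.2, and at 55% to 60% the means were 22.4 ± 1.09 and 21.9 ± 1.25. Each of these pairs differed by less than its spread, while from the first to the last the score rose by far more than that. In the richest class, of 65% to 70%, the exons had 24.1 ± 2.28, little above the 23.6 ± 1.74 of the class before it, and the windows had 26.0 ± 3.16, with the exons lower on 18 of 21 autosomes. In the poorest, of 30% to 35%, the means were 11.3 ± 0.671 and 11.8 ± 1.10, with the exons lower on 15 of 19.

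The exons were covered by positions about as much as the windows were. On average 4.93 ± 0.252 positions had midpoints within 500 bp of the exon centre, against 5.09 ± 0.165 for the GC-matched windows, and single exons had between 0 and 9. The nearest midpoint lay a median of 43.5 bp from the centre, with quartiles of 22 bp and 69 bp. Positions covered 73.4% of the bases of the exons, 71.4% of those of the GC-matched windows and 73.6% of those of the windows with few repeated 14-mers, so the direction turned with the choice of windows. Covered from end to end were 26.2% of the exons and 24.8% of the GC-matched windows, and 1932 exons (5.34%) and 2064 windows (5.71%) were not covered at all. Among the windows with few repeated 14-mers, 26.4% were covered from end to end and 1481 (4.10%) not at all, so these directions turned too. The part of the richer flanks of these windows in this was not tested. Where a position lay within 50 bp of the exon centre, the median distance from its midpoint to the next one was 180 bp on both sides, against 170 bp in the GC-matched windows. The medians of single autosomes overlapped, on the upstream side from 165 to 205 bp in the exons and from 162.5 to 180 bp in the windows. The next midpoint was 250 bp or more away on the upstream side in 26.8% of these exons and 19.5% of the windows, and on the downstream side in 24.8% and 18.9%. The flanks of these windows were richer in G and C than those of the exons, and the part of this in the spacing was not tested.

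Positions were rarely called on sequence with an exact copy elsewhere, in exons and in windows. No midpoint lay within 500 bp in 449 exons, and 272 of these, or 60.6%, had another exact copy on the autosomes. Copies of this kind were found for 420 exons in all, or 1.16%, and 32 of them, or 7.62%, had a midpoint within 50 bp of the centre, against 58.0% of the exons without a copy. The GC-matched windows had such copies in 413 cases, or 1.14%, and 6 of these had a central midpoint. No midpoint lay within 500 bp in 448 of the windows, of which 200, or 44.6%, had a copy. How the authors' alignment treated reads that fit several places is not given in the sources used here, and its part in these values was not tested.

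Gene groups of known function were followed through 5 lists, and their shares are read against the 57.4% of all exons. Genes of pluripotency, such as DPPA2, contributed 7 exons from 5 genes, and 4 of these had a midpoint within 50 bp of the centre. None of the exons of POU5F1, SOX2, NANOG and LIN28A, which encode core regulators of the pluripotent state, met the rule, nor did any of EEF2 or TNNT2. Genes of the sarcomere, the contractile unit of muscle, had 67 exons, 41 of them (61.2%) with a central midpoint, and a log2 ratio of 0.16. Genes of splicing factors had 26 exons, 19 of them (73.1%) with a central midpoint, and a log2 ratio of 0.39 from 19 central midpoints. Chromatin regulators had 118 exons, 68 of them (57.6%) with a central midpoint, and a log2 ratio of 0.22. Proteins with EGF-like repeats, whose domains are often encoded by single exons, had 168 exons, 105 of them (62.5%) with a central midpoint, and a log2 ratio of 0.43. LRP1B alone, a large receptor of the LDL receptor family, gave 50 of those. No test was made of these groups, since their members had been listed with results of these data known and the exons of a gene share its chromatin.

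ACTN2, which encodes the actin cross-linker alpha-actinin-2 of the sarcomere, was the only one of 7 genes looked up by name that had members, with 7 exons. The other genes were POU5F1, SOX2, NANOG, LIN28A, EEF2 and TNNT2. A midpoint within 50 bp of the centre was called in 4 of the 7 exons of ACTN2, against 57.4% of all the exons. These midpoints lay at -18, 0.5, 12.5 and 7.5 bp from the centre in exons 11, 15, 18 and 20. The nearest midpoints of exons 12, 13 and 14 lay 50.5, 70.5 and 157.5 bp after the centre. The scores of these nearest positions ran from 9.87 to 25.9. In exon 18, with a GC content of 53.1% against 40.2% in its flanks, the position at chr1:236757502-236757641 covered 131 bp and scored 14.8, the median of the whole list. Another position, at -87.5 bp, overlapped the start of the exon and scored higher, at 27.1.

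Outside chromosome 8, and with 1 exon per gene, the exons with the highest-scoring central positions lay in TBXAS1 (64.2), SORT1 (58.0), TANGO6 (55.5), CKMT2 (54.3) and TBC1D2 (53.1). These are scores of the position centred within 10 bp of the exon centre, by which the exons were chosen, and at least 99.9% of the positions on the same chromosome scored lower. TBXAS1 encodes thromboxane A synthase, and the position at chr7:139936172-139936311 covered all 117 bp of its exon 5. The neighbouring positions lay at -197.5 and 202.5 bp and scored 22.2 and 32.1. SORT1 encodes the sorting receptor sortilin. The position in its exon 10, of 156 bp, had its midpoint at 0 bp from the exon centre and covered 140 bp. The next midpoint on the downstream side lay 390 bp away. CKMT2 encodes a mitochondrial creatine kinase of striated muscle, and its exon 3, of 199 bp, had positions at -122.5, -2.5 and 167.5 bp. The GC content of these exons ran from 45.8% in TANGO6 to 61.2% in TBC1D2, and all 5 were richer in G and C than their flanks.

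Also outside chromosome 8, the exons whose nearest midpoint lay within 500 bp but farthest from the centre were those in WASHC2C, at 497 bp, TVP23B, at -496 bp, and WDR70, at -494 bp. Each had a single position within 500 bp and no covered base. WASHC2C encodes a subunit of the WASH complex, which builds actin on endosomes, and both WASHC2C and TVP23B have close relatives in the genome, whose part in the missing positions was not tested. None of the 3 exons had another exact copy on the autosomes. Their GC content was 46.2%, 42.4% and 47.8%, against a mean of 47.5% and a lower quartile of 41.1% over all the exons.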

How the data were processed

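The authors trimmed the reads with Trimmomatic 0.40 and used the nucMACC workflow on GRCh38, leaving out regions on a blacklist. The deposited list gives each position a score, a signal that is never negative, with a smallest value above 0 of 1.23. The scores listed for the named exons fell in steps of this size, and what a step stands for is not given. Per the study's methods, the shallower runs of 50-bp reads went no further than quality control, and profiling used the deeper runs of 150-bp reads. The scaling of the score, the runs pooled for this list and the position caller are not given in the sources used here. The list itself gives no reads behind a score, so no counting error was computed.

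Midpoints were the interval starts plus 70 bp in 0-based terms. The starts of the positions listed for the named exons fell on a grid of several bp, so distances are no finer than that. Exons came from GENCODE release 44, where the study's methods name release 48. Control windows were drawn with fixed seeds from random intronic candidates, 60 times as many as the exons of the chromosome and shared by them. GC-matched windows, also those with few repeats or matched in CpG, lay within 0.01 of the exon in GC content. Flank-matched windows allowed 0.03 in the window and in the flanks, and unmatched windows had no limit. Edge-matched windows allowed 3 percentage points in the window and 5 in each neighbour. The reference was all in upper case, so repeats could not be limited by case. Members, lists and comparisons were chosen with earlier results of these data known. Named exons followed a rule: the exon nearest in length to nucleosomal core DNA in each of 7 genes looked up by name (4 regulators of pluripotency, EEF2, TNNT2 and ACTN2), the 5 with the highest-scoring position within 10 bp of the centre, and the 3 whose nearest midpoint was farthest, the last 2 kinds outside chromosome 8. The alternatives tried were other positions, weights, flanks, bins, windows and exon sets. Calculations used Python 3.11.15, NumPy 2.4.6, pandas 2.3.3 and matplotlib 3.10.9, and were tested on simulated positions.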

Additional observations from a re-analysis of the deposited data

How the results depend on the processing

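Each of the 9 results was recomputed under its alternatives, which gave 68 values. Of these, 53 moved by less than the SD over autosomes and kept their sign, 10 moved further and 5 changed sign. With positions under the median score left out, the log2 ratio at the exon centre rose to 0.39, that before the acceptor site fell to -0.16 and that after the donor site rose to 0.060, while the share of exons with a central midpoint fell to 35.9% and the positions within 500 bp to 2.77, since fewer positions were used. The ratio after the donor site, of 0.0031, rose beyond its SD also with midpoints weighted by score, to 0.062, and changed sign, at values close to 0, in others: it was -0.0015 with flanks 600 to 900 bp away, -0.00060 with 1 exon per gene and -0.0065 for exons at least 5000 bp from a coding start. The maximum before the donor site moved to -17.5 bp with bins of 5 bp. The excess of the exons over windows was 0.22 with unmatched windows, 0.044 with 1 exon per gene, 0.036 and 0.025 with flank-matched and edge-matched windows, and 0.10 and 0.096 with windows matched in CpG and windows of few repeated 14-mers. The log2 ratio of mean scores, exons over windows, was -0.047 with GC-matched windows, 0.13 with unmatched ones, -0.0057 with windows matched in CpG, -0.10 with windows of few repeated 14-mers and 0.0092 with edge-matched ones. Windows of few repeats, edge-matched windows and exons without another copy were chosen after seeing the data. The 2 planned values without a limit on repeats were not run, since no such limit could be set. No paired analysis was possible because the pooled list holds no value per sample. The list gives no reads behind a score, so no counting error could be given. Leaving out a library was not possible.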
